A study of Mus musculus with 2 samples.

Results

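Blood and lymphatic vessels of the mouse ovary were examined through 38 genes. They comprise surface, junction, secreted and transcription factor markers of endothelial cells, the VEGF and angiopoietin ligands with their receptors, a Notch ligand and receptor, and lymphatic markers. The members were chosen by gene symbol from a list, with earlier results of these data known. All 38 were found among the 24421 rows of the count table. All 38 also passed the minimum of a mean of 1 CPM (1 count per 1000000 in a library of scaled size), which 13928 genes of the table reached. The study set ovarian RNA of knockouts for H19, an imprinted long noncoding RNA, against that of wild types, to find the genes it regulates; both groups are labelled C57BL/6J and 8 weeks old. There was 1 library from an H19KO ovary sample, whose allele is given as H19(Δ3), and 1 from a wild-type (WT) ovary sample. The labels give neither the number of animals behind a library nor the stage of the oestrous cycle.

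Endothelial cells line blood and lymphatic vessels. In the adult ovary vessels grow and regress with each cycle: they surround the theca of growing follicles, stay outside the granulosa layer until ovulation, and then invade the forming corpus luteum. VEGF-A, made by follicular and luteal cells, acts on the receptor tyrosine kinase encoded by Kdr, while Flt1 encodes a receptor that can trap the ligand. Angiopoietin-1 activates the receptor TIE2, the product of Tek, and angiopoietin-2 can oppose that action and destabilise vessels.

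The H19KO library held 23041225 counts over 19556 genes and the WT library 23335131 counts over 18730 genes. H19 itself had 0 counts in the H19KO library and 672 counts in the WT library. Since 0 counts allow a true value of up to 3, the H19KO library had at least 223-fold less H19. There is 1 library per genotype, so differences lack a check against replicates and stand without p-values. Each ratio is of counts scaled by TMM (trimmed mean of M-values), H19KO over WT, and stands with a 95% exact binomial interval that covers counting error only. A gene is called higher or lower where its whole interval lies on that side of a ratio of 1. Such a call describes these 2 libraries, not the genotypes.

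More endothelial and angiogenesis genes were lower than higher in the H19KO library, by modest amounts, and none lay wholly beyond 2-fold. By the interval bound nearer to a ratio of 1, Notch4, Nos3, Sox18, Angpt2 and Pecam1 were farthest below, while Cldn5, Pdpn, Nrp1 and Nrp2 were slightly above. Of the 38 members 18 were lower, 4 were higher and 16 had an interval that spanned a ratio of 1. Lower members thus made up 47.4% of the list, against a background of 24.0% of all measured genes. Higher members made up 10.5%, against 22.2% of all measured genes. Since the list was chosen with earlier results of these data known, these shares are a description and not a test. The median log2 ratio was -0.18 over the members and -0.01 over all 13928 measured genes. A ratio below 0 was found for 29 of the 38 members, against 52.1% of all measured genes.

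More abundant genes have narrower intervals, so the share of calls grows with depth. The members had a median of 35.9 CPM, against 30.1 CPM for all measured genes. Among the 6085 genes with a mean between 13.5 and 74.0 CPM, the quartiles of the members, 25.3% were lower and 21.3% higher. Of the 18 members in that range 9 were lower and 1 was higher. When the whole interval had to lie beyond 1.2-fold, 5 members, or 13.2%, were lower and 0 were higher. The background for that rule was 4.57% lower and 5.18% higher. No member lay wholly beyond 2-fold, where the background was 0.388% lower and 0.610% higher.

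**Figure D1:**
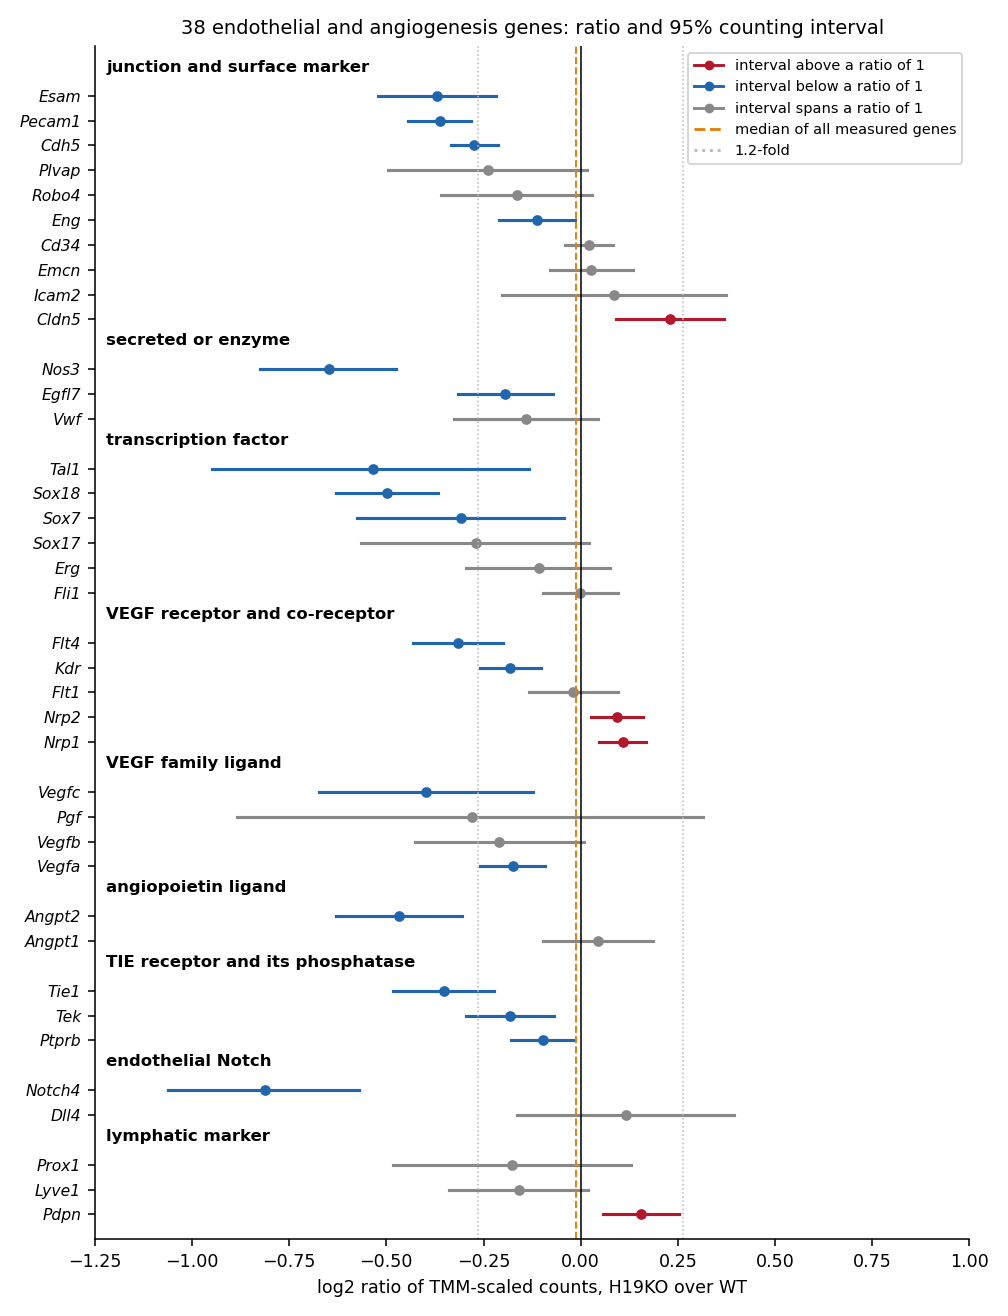
Log2 ratio of TMM-scaled counts, H19KO over WT, for each of the 38 genes grouped by role, with bars for the 95% counting interval. The intervals of 18 genes lie below a ratio of 1 (blue), 4 lie above it (red) and 16 span it (grey). The dashed line is the median of all measured genes, -0.01.

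**Figure D2:**
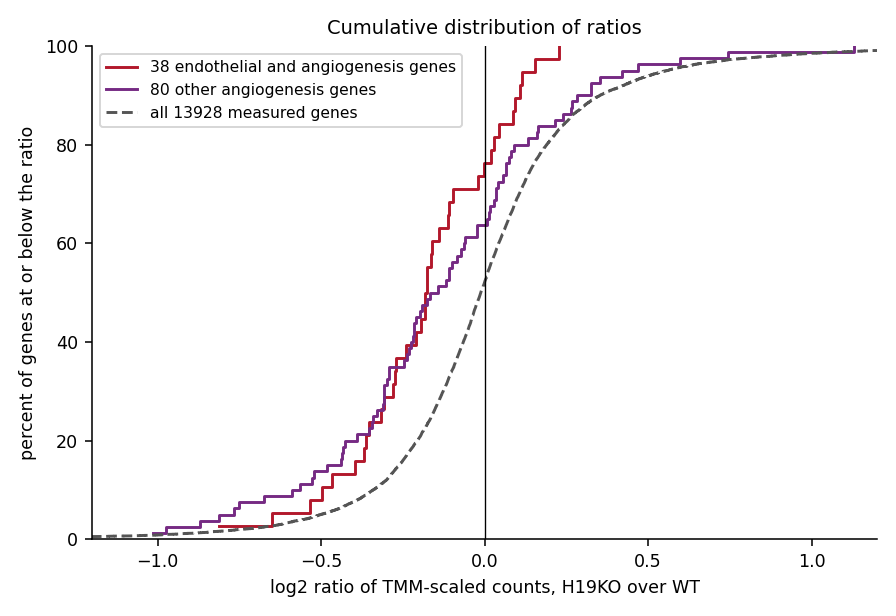
Percent of genes at or below each log2 ratio, H19KO over WT, for the 38 endothelial and angiogenesis genes, 80 other angiogenesis genes and all 13928 measured genes. The curve of the 38 genes lies left of the curve of all genes over most of its course, with medians of -0.18 and -0.01.

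RefSeq promoter windows on GRCm38.p6, the build also called mm10, were matched by symbol for 23 of the 38 members. Windows from either end of the ratio scale of eligible members are shown: Notch4 and Vegfc on the lower side, Pdpn and Cldn5 on the higher side. They are the 2 lowest and 2 highest of 15 members with 1 listed start and at least 150 upstream bases free of annotated exons. Nos3, Tal1, Sox18 and Angpt2 had lower ratios than Vegfc but were not among these 15. Each runs 5′ to 3′ toward the transcription start. Capitals mark matches on either strand to AGGAAG, the core of sites for ETS factors such as ERG and FLI1, to ACAAT, the core for SOX factors, to ACGTG, the core of the hypoxia response element, or to TTCNNNGAA, the STAT motif.
Notch4, chr17:34564045-34564267, plus strand: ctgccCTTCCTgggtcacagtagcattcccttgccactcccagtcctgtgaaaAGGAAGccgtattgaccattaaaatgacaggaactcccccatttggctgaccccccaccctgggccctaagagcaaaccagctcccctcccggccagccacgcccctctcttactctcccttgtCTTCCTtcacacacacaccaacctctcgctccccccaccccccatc
Vegfc, chr8:54077282-54077531, plus strand: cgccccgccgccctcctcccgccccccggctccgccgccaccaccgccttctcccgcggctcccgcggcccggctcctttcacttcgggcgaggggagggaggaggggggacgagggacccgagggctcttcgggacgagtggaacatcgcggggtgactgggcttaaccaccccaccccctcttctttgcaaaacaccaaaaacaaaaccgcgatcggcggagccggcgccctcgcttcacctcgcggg
Pdpn, chr4:143299565-143299814, minus strand: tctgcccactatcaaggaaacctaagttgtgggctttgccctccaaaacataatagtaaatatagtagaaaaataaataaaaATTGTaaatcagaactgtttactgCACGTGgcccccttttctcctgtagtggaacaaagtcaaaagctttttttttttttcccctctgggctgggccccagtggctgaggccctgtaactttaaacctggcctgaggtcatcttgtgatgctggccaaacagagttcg
Cldn5, chr16:18776597-18776846, plus strand: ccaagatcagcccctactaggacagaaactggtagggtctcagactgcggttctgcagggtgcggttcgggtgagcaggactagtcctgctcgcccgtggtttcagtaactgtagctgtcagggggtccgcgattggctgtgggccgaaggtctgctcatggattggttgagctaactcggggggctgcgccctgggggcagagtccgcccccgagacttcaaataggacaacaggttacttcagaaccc

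The Notch4 stretch held 3 matches to AGGAAG. It was cut to 223 bases, since the 27 bases nearest the start are annotated exon. The full Notch4 window of 250 bases also held 1 match to ACAAT. Pdpn held 1 match to ACAAT and an ACGTG match on each strand at overlapping positions, and neither Vegfc nor Cldn5 held any of the 4 motifs. Over the 250 bases upstream of all 31 listed starts of members, AGGAAG occurred in 35.5%, against 29.5% of 32851 promoters of the same length. ACAAT occurred in 22.6% of member promoters and in 27.7% of all, ACGTG in 6.45% and 16.6%, and TTCNNNGAA in 0% and 7.02%. A match describes letters in this window and is not evidence of a bound site.

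Among the 10 junction and surface markers, 4 were lower, 1 was higher and 5 spanned a ratio of 1, with a median log2 ratio of -0.14. The background for calls in each role was 24.0% lower and 22.2% higher among all measured genes. With so few genes per role, such counts are descriptions only. Pecam1, an adhesion molecule of endothelial junctions that platelets and leukocytes also carry, lies on mm10 chromosome 11 from 106654217 to 106750628 on the minus strand. It had 2232 counts in the H19KO library and 2887 in the WT library, a log2 ratio of -0.36 (-0.44 to -0.28). Cdh5 encodes VE-cadherin, the adhesive protein of endothelial adherens junctions, and had 4001 counts in the H19KO library and 4864 in the WT library (-0.27, -0.33 to -0.21). Esam, an immunoglobulin-family protein of endothelial tight junctions, had 639 and 830 counts in the H19KO and WT libraries, a log2 ratio of -0.37 (-0.52 to -0.22). These 3 junction genes were lower in the H19KO library by similar ratios, and their intervals overlap. Eng, which encodes the TGF-beta co-receptor endoglin, was only just lower, with 1621 counts in the H19KO library and 1762 in the WT library (-0.11, -0.21 to -0.01). Its exons overlap those of Fpgs on the opposite strand, a row with 413 counts in the H19KO library and 474 in the WT library.

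The other surface markers were mixed. Cd34, a sialomucin of capillary endothelium and of some stromal and progenitor cells, had 4209 counts in the H19KO library and 4172 in the WT library (0.02, -0.04 to 0.08). Emcn, a sialomucin of capillaries and veins, had 1425 and 1406 counts in the H19KO and WT libraries (0.03, -0.08 to 0.13). The intervals of both exclude the ratio of Pecam1. Icam2, a leukocyte ligand, had 209 counts in the H19KO library and 198 in the WT library, too few to place it more closely than -0.20 to 0.37. Plvap, the diaphragm protein of fenestrated endothelium, had 235 counts in the H19KO library and 279 in the WT library (-0.24, -0.50 to 0.02). Robo4, an endothelial guidance receptor, had 415 and 468 counts in the H19KO and WT libraries (-0.17, -0.36 to 0.03). Cldn5, the claudin of endothelial tight junctions, was the highest member by ratio. It lies on mm10 chromosome 16 from 18776847 to 18778262 and had 915 counts in the H19KO library and 785 in the WT library (0.23, 0.09 to 0.37).

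Of the secreted and enzyme markers, Nos3 stood apart from the others. Nos3 encodes endothelial nitric oxide synthase and lies on mm10 chromosome 5 from 24364810 to 24384474. It had 440 counts in the H19KO library and 694 in the WT library, a log2 ratio of -0.65 (-0.83 to -0.48), or 36.2% fewer scaled counts in the H19KO library. Of all measured genes 2.76% had a lower ratio. The Nos3 exons overlap those of Atg9b on the opposite strand, a row with only 15 counts in the H19KO library and 12 in the WT library. Egfl7, a secreted protein of the vascular matrix, had 1031 counts in the H19KO library and 1186 in the WT library (-0.19, -0.32 to -0.07). It overlaps Agpat2 on the opposite strand, whose row ran the other way with 690 and 578 counts in the H19KO and WT libraries, a log2 ratio of 0.26. Vwf, the endothelial and platelet clotting protein, had 461 counts in the H19KO library and 511 in the WT library (-0.14, -0.33 to 0.04).

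The 6 transcription factors had log2 ratios from -0.54 to -0.00, with a median of -0.29. Of these 6 genes 3 were lower, against 24.0% of all measured genes. Sox18, a SOXF factor of developing vessels and of lymphatic specification, lies on mm10 chromosome 2 from 181669836 to 181671640. It had 817 counts in the H19KO library and 1160 in the WT library (-0.50, -0.63 to -0.37). Its SOXF relative Sox7 had 212 counts in the H19KO library and 264 in the WT library (-0.31, -0.58 to -0.04). Sox17, the SOXF factor linked to arteries, had 178 and 216 counts in the H19KO and WT libraries (-0.27, -0.57 to 0.02). All 3 SOXF genes had a ratio below 0, against 52.1% of all measured genes, and the interval of Sox17 reached just past 0. Tal1, a factor shared by blood and endothelial lineages, had 87 counts in the H19KO library and 127 in the WT library (-0.54, -0.95 to -0.13). The 2 ETS factors among the members both spanned a ratio of 1. Erg, restricted largely to endothelium, had 463 counts in the H19KO library and 502 in the WT library (-0.11, -0.29 to 0.08). Fli1, which blood cells also express, had 1751 and 1762 counts in the H19KO and WT libraries (-0.00, -0.10 to 0.10). Ets1, an ETS gene of the wider angiogenesis list named after its values were seen, had 2403 counts in the H19KO library and 3090 in the WT library (-0.35, -0.43 to -0.28). Ets2 of the same list did not share this, with 2312 and 2224 counts in the H19KO and WT libraries (0.06, -0.02 to 0.15).

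The VEGF receptors and co-receptors did not share a direction. Their summed level was 567.8 CPM in the H19KO library and 570.2 CPM in the WT library, a log2 ratio of -0.01. Most of that sum came from Nrp1, at 198.8 and 184.4 CPM in the H19KO and WT libraries, and Nrp2, at 161.4 and 151.4 CPM. It thus says little about Kdr, Flt1 and Flt4. Kdr, the main signalling receptor for VEGF-A, had 2463 counts in the H19KO library and 2808 in the WT library (-0.18, -0.26 to -0.10). Flt4, the receptor for VEGF-C found on lymphatic and fenestrated endothelium, had 1117 counts in the H19KO library and 1398 in the WT library (-0.32, -0.43 to -0.20). Flt1 had 1221 and 1244 counts in the H19KO and WT libraries, a log2 ratio of -0.02 (-0.13 to 0.10). The neuropilins, co-receptors that stromal cells and neurons also express, were both slightly higher. Nrp1 had 4596 counts in the H19KO library and 4288 in the WT library (0.11, 0.05 to 0.17). Nrp2 had 3733 counts in the H19KO library and 3520 in the WT library (0.09, 0.03 to 0.16).

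All 4 VEGF family ligands had a ratio below 0, and 2 of them were called lower. The shares among all measured genes were 52.1% with a ratio below 0 and 24.0% called lower. Vegfa had 2183 counts in the H19KO library and 2479 in the WT library (-0.18, -0.26 to -0.09). Vegfc, the ligand of lymphatic growth, had 194 counts in the H19KO library and 257 in the WT library (-0.40, -0.67 to -0.12). Vegfb had 326 and 379 counts in the H19KO and WT libraries (-0.21, -0.43 to 0.01). Pgf, placental growth factor, had only 45 counts in the H19KO library and 55 in the WT library (-0.28, -0.88 to 0.31), so its direction was not detectable at this depth. The lymphatic ligand Vegfd, listed under its older symbol Figf, had 284 counts in the H19KO library and 315 in the WT library (-0.14, -0.38 to 0.09).

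The angiopoietins parted. Angpt2 lies on mm10 chromosome 8 from 18690263 to 18741562 on the minus strand. It had 537 counts in the H19KO library and 747 in the WT library (-0.47, -0.63 to -0.31). Angpt1 had 826 counts in the H19KO library and 805 in the WT library (0.05, -0.10 to 0.19). On a scale of CPM per kilobase of exon, the level of Angpt2 was 0.917 times that of Angpt1 in the H19KO library and 1.31 times in the WT library. The change of that ratio, H19KO over WT, was -0.51 on the log2 scale (-0.73 to -0.30), a value that no scaling between libraries can alter. The pair was chosen after its values were seen, so the change restates the ratios of its genes. Both TIE receptor genes were lower. Tek had 1193 and 1360 counts in the H19KO and WT libraries (-0.18, -0.29 to -0.07). Tie1, an orphan receptor that modulates TIE2, had 859 counts in the H19KO library and 1103 in the WT library (-0.35, -0.48 to -0.22). Ptprb, the endothelial phosphatase that dephosphorylates TIE2, had 2314 counts in the H19KO library and 2490 in the WT library (-0.10, -0.18 to -0.02).

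Notch4 had the lowest ratio of all 38 members, and its ligand Dll4 did not share it. Notch4 encodes an endothelial Notch receptor on mm10 chromosome 17 from 34564268 to 34588503. It had 216 counts in the H19KO library and 382 in the WT library (-0.81, -1.06 to -0.57), or 43.1% fewer scaled counts in the H19KO library. Of all measured genes 1.61% had a lower ratio. Dll4, the ligand of endothelial tip cells, had 223 counts in the H19KO library and 207 in the WT library (0.12, -0.16 to 0.40). Its exons overlap those of Gm14207 on the opposite strand, a row with 15 counts in the H19KO library and 2 in the WT library. Per kilobase of exon, the level of Notch4 was 0.463 times that of Dll4 in the H19KO library and 0.882 times in the WT library. The log2 change of that ratio was -0.93 (-1.31 to -0.55), for a pair also chosen after its values were seen.

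The lymphatic markers had log2 ratios from -0.18 to 0.16. Lyve1, a hyaluronan receptor of lymphatic endothelium and some macrophages, had 485 counts in the H19KO library and 545 in the WT library (-0.16, -0.34 to 0.02). Prox1, the factor that specifies lymphatic identity, had 169 and 192 counts in the H19KO and WT libraries (-0.18, -0.48 to 0.13). Neither interval excludes a ratio of 1. Pdpn, a sialoglycoprotein of lymphatic endothelium that stromal and epithelial cells also express, had 1811 counts in the H19KO library and 1635 in the WT library (0.16, 0.06 to 0.25). Per kilobase of exon Pdpn was the most abundant member in the H19KO library, at 43.1 CPM per kilobase against 38.7 in the WT library.

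Levels of the members per kilobase of exon spanned from below 1 to above 40 CPM per kilobase. Exon length was taken over all annotated transcripts of a gene, which understates the level of genes with long alternative exons. Cdh5 had the highest mean level, with 41.2 CPM per kilobase in the H19KO library and 49.8 in the WT library. Sox18 followed Pdpn, with 21.8 CPM per kilobase in the H19KO library and 30.8 in the WT library. Pgf was the lowest member, at 0.670 CPM per kilobase in the H19KO library and 0.815 in the WT library. Vegfa, at 22.0 and 24.9 CPM per kilobase in the H19KO and WT libraries, was the most abundant of the ligands.

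**Figure D3:**
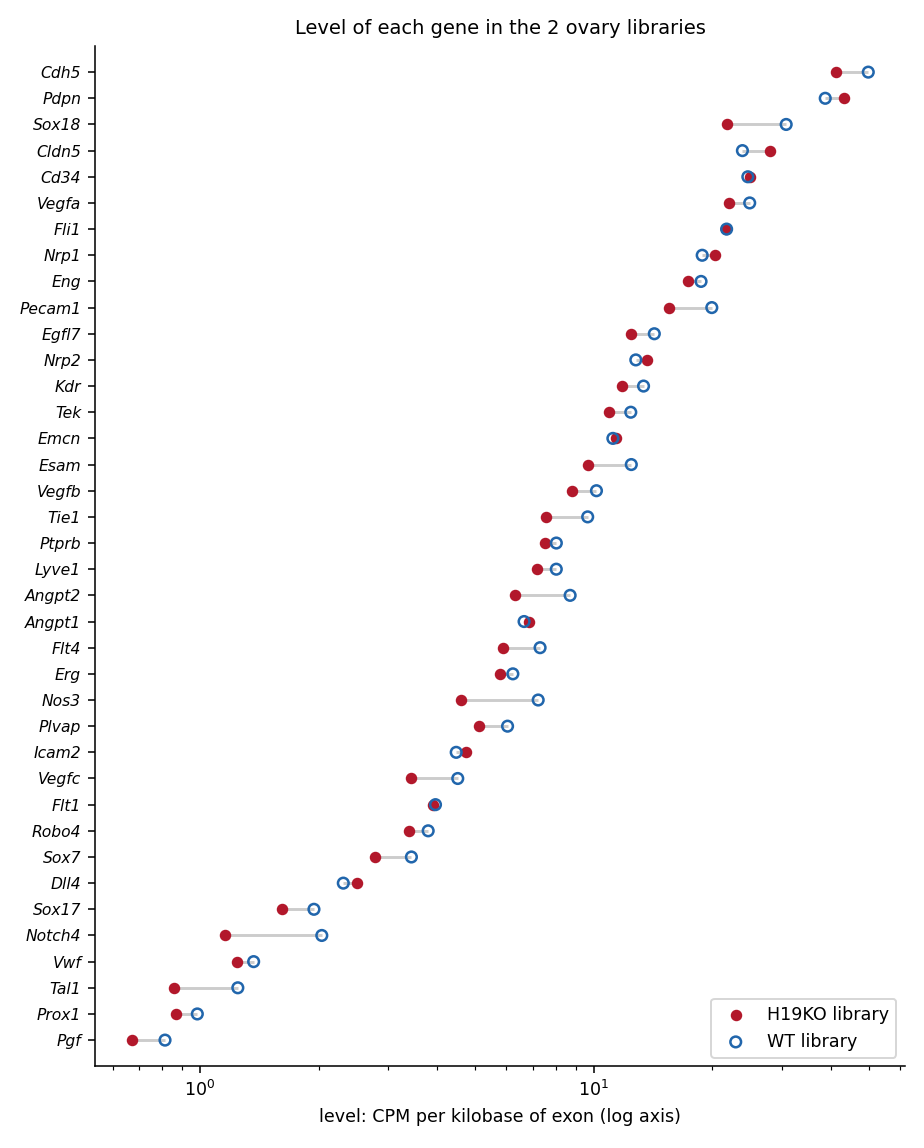
Level of each of the 38 genes in CPM per kilobase of exon (log axis), with filled points for the H19KO library and open points for the WT library. Genes are ordered by mean level, from Cdh5 at 41.2 and 49.8 in the H19KO and WT libraries down to Pgf at 0.670 and 0.815.

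The balance between members was compared in 11 pairs of genes, chosen after their values were seen. Within a library such a ratio is free of the scaling. The level of Vegfa was 1.87 times that of its receptor Kdr in the H19KO library and 1.86 times in the WT library, a log2 change of 0.01 (-0.11 to 0.12). Nrp1 to Nrp2 was as close, with a log2 change of 0.02 (-0.07 to 0.11). Flt1 to Kdr was 0.331 in the H19KO library and 0.296 in the WT library, a log2 change of 0.16 (0.02 to 0.30). Other pairs, chosen because their members differed, are given as descriptions. Pecam1 to Cd34 was 0.621 in the H19KO library and 0.810 in the WT library (-0.38, -0.49 to -0.28). Cldn5 to Cdh5, 2 junction genes of the same cells, was 0.679 in the H19KO library and 0.479 in the WT library (0.50, 0.35 to 0.66). Nos3 to Cdh5 was 0.112 in the H19KO library and 0.145 in the WT library (-0.38, -0.56 to -0.19). Of the remaining pairs, Kdr to Nrp1 had a log2 change of -0.29 (-0.39 to -0.19), whereas the intervals of Tie1 to Tek and Flt4 to Prox1 spanned 0.

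A wider list of 82 angiogenesis genes had 80 measured genes. Of these 36 were lower, 16 were higher and 28 spanned a ratio of 1, with a median log2 ratio of -0.15. Lower genes thus made up 45% of the wider list and higher genes 20%, against backgrounds of 24.0% and 22.2%. Its log2 ratios ran from -1.01 to 1.13, a wider range than that of the 38 members, from -0.81 to 0.23. The chemokine gene Cxcl12 had 1361 counts in the H19KO library and 2766 in the WT library (-1.01, -1.11 to -0.92). Clec14a, an endothelial C-type lectin, had 1866 counts in the H19KO library and 3688 in the WT library (-0.97, -1.06 to -0.89). Both were farther below a ratio of 1 than Notch4 by their point ratio. Igfbp3, an IGF-binding protein, had a log2 ratio of -0.81. Rasip1, an endothelial effector of small GTPases, had -0.75, the vasodilator peptide gene Adm had -0.77 and the apelin receptor gene Aplnr had -0.59. The angiogenesis inhibitor Vash1 had -0.53 and the prostaglandin transporter Slco2a1 had -0.52.

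In that list 16 genes were lower with the whole interval beyond 1.2-fold, and 3 were higher by that rule. Of all measured genes 4.57% were lower and 5.18% higher by that rule. Adamts1, a protease with antiangiogenic activity that is also induced at ovulation, had 4500 counts in the H19KO library and 2069 in the WT library (1.13, with the interval wholly beyond 2-fold). Cxcr4, the receptor for the Cxcl12 product and a gene of leukocytes and tip cells, had 1065 counts in the H19KO library and 708 in the WT library (0.60, 0.46 to 0.74). Tfpi, an inhibitor of the tissue factor pathway, had a log2 ratio of 0.47 (0.39 to 0.54). By role, the 10 arterial and Notch genes had a median of -0.31 with 7 lower and 0 higher. The 7 genes of hypoxia sensing had a median of -0.06 with 1 lower and 2 higher. Medians were 0.08 for 9 angiogenesis inhibitors (4 lower, 4 higher) and -0.11 for 10 sprouting and tip cell genes (5 lower, 2 higher). For 21 endothelial receptor and signalling genes the median was -0.19 (10 lower, 2 higher). For 23 measured surface and secreted genes it was -0.08 (9 lower, 6 higher). The background for these calls past a ratio of 1 was 24.0% lower and 22.2% higher.

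Markers of other cell types also differed between the libraries. Of all measured genes 24.0% were lower and 22.2% higher, the background for each list. Of 10 corpus luteum markers, all measured, 8 were lower and 2 higher, with a median log2 ratio of -0.32. The luteal list holds the steroidogenic genes Hsd3b1 at -0.06, Cyp11a1 at -0.02 and Star at 0.11. Ratios so close to 1 were called because these genes, the 3 most abundant of the list, have very many counts. Cyp11a1, called lower, had 95277 counts in the H19KO library and 97106 in the WT library. Other luteal markers differed more. Log2 ratios of the list ran from -0.94 to 0.35. With the whole interval beyond 1.2-fold 5 of the 10 were lower and 0 higher, against 4.57% and 5.18% of all measured genes. The list summed to 18102 CPM in the H19KO library and 19716 CPM in the WT library. Most of that sum came from Hsd3b1 and Cyp11a1, so it says little about the other luteal markers. All 12 markers of granulosa, theca and oocytes were measured, so the tissue label was met, and 11 were lower and 0 higher, with a median of -0.51. They summed to 1532 CPM in the H19KO library and 2511 CPM in the WT library, and Inha, Cyp17a1 and Nr5a1 had log2 ratios of -0.50, -1.98 and -0.60. These lists were lower together with the endothelial genes. Their part in the endothelial ratios was not tested.

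Macrophage markers and smooth muscle markers ran the other way. Of 12 macrophage markers 9 were higher and 1 was lower, or 75% and 8.33%, against backgrounds of 22.2% and 24.0%. Their median log2 ratio was 0.29, with a sum of 694.0 CPM in the H19KO library and 557.8 CPM in the WT library. Lyz2, C1qb and C1qa had log2 ratios of 0.54, 0.34 and 0.36. The 1 lower macrophage marker, named after its values were seen, was Csf1r. It had 1223 counts in the H19KO library and 1451 in the WT library (-0.24, -0.35 to -0.13). Of 13 pericyte and smooth muscle markers 7 were higher and 4 were lower, or 53.8% and 30.8%, against the same backgrounds. Their median was 0.16, with a sum of 2600 CPM in the H19KO library and 2230 CPM in the WT library. Acta2, Myh11 and Mylk had log2 ratios of 0.16, 0.60 and 0.21. The 4 lower ones, named after their values were seen, were Notch3 at -0.45, Cspg4 at -0.41, Pdgfrb at -0.35 and Rgs5 at -0.17. Of the other pericyte markers in the list, Abcc9 was higher at 0.26 (0.18 to 0.34) and Kcnj8 had -0.06 (-0.32 to 0.20). The part of macrophage and smooth muscle markers in the endothelial ratios was not tested.

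Platelet and red blood cell markers had few counts. The 10 platelet and red blood cell markers summed to 6.57 CPM in the H19KO library and 6.84 CPM in the WT library, and the 4 haemoglobin rows Hbb-bs, Hbb-bt, Hba-a1 and Hba-a2 were listed at 0 in both. These genes are near-identical copies, and how such reads were assigned is not given, so the 0 values are no measure of red blood cells. Only 3 of these markers were measured: Itga2b with a log2 ratio of 1.46, Pf4 with 0.29 and Alas2 with 44 counts in the H19KO library and 89 in the WT library. In RNA from whole ovaries, fewer endothelial cells and less RNA per endothelial cell cannot be told apart.

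**Figure D4:**
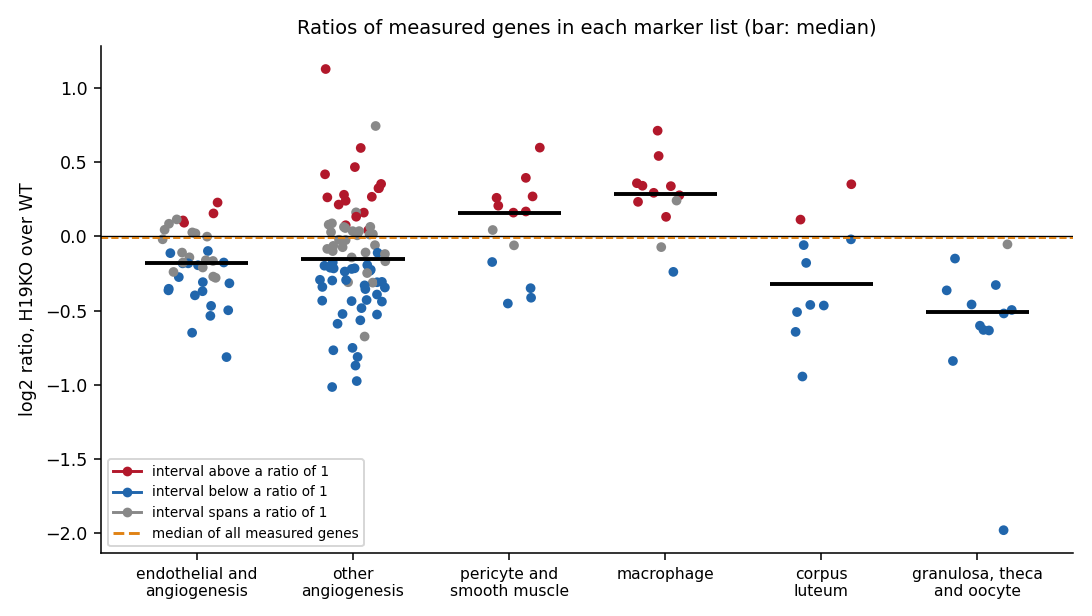
Log2 ratio, H19KO over WT, of the measured genes in each marker list, with a bar at the list's median and colours for the side of the counting interval. The endothelial and angiogenesis genes (median -0.18) and the luteal genes (-0.32) lie mostly below 0, and macrophage markers (0.29) mostly above.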

How the data were processed

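The authors deposited 1 table of whole-number counts per gene symbol, with 1 column for each of the 2 ovary libraries. Per the labels' protocols, the libraries were stranded, paired-end and made from total ovarian RNA after ribosomal RNA removal. The submitters' processing notes name mm10, STAR 2.5.0a, DESeq2 1.0.0 and Cufflinks 2.2.1, in no stated role. How reads were assigned to genes, and whether by strand, is not given in the sources used, so overlapping genes cannot be separated. The table has 27 rows with dates for symbols, which held 0.231% of H19KO and 0.229% of WT counts and stayed in the totals. Whether the deposited counts had been rescaled and rounded before deposit is not stated.

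Libraries were scaled by TMM (edgeR 4.0.16, R 4.3.3). Log2 ratios add 0.5 to each scaled count, and CPM uses the TMM-scaled library size. Intervals are 95% exact conditional binomial (Clopper-Pearson) intervals of the ratio. For the ratio of 2 genes they come from the conditional odds ratio. Reads without molecular identifiers are not independent molecules, so intervals and the allowance of 3 counts for a count of 0 cover counting error only. Coordinates and exon lengths are from GENCODE M21 on mm10, and promoter sequences from RefSeq GRCm38.p6. The interval code was checked on simulated data.

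Members, lists and thresholds were chosen with earlier results of these data known. Named genes were all members, up to 8 others per direction wholly beyond 1.2-fold ranked by the nearer bound, the 3 most abundant measured genes of each marker list, and H19. Vegfd, Ets1, Ets2, Csf1r, overlapping genes, 6 pericyte genes and the gene pairs were named after their values were seen. Alternatives were scaling by DESeq2 1.42.0 size factors or by library totals, TMM without the 10 most abundant genes, 5 added counts, no filter, a minimum of 5 CPM, 2 call rules at 1.2-fold and the mean of members. Scripts ran in Python 3.11.15 with pandas 2.3.3, scipy 1.17.1, numpy 2.4.6 and matplotlib 3.10.9.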

Additional observations from a re-analysis of the deposited data

How the results depend on the processing

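Of the planned settings, only the call rule altered the counts of members by more than 1.5 times. With the whole interval required beyond 1.2-fold, 5 members were lower and 0 higher. With the point ratio beyond 1.2-fold, 14 were lower and 0 higher, against 15.0% and 14.5% of all measured genes. Under the 3 other scalings, without the filter on low counts, and with a minimum of 5 CPM, 17 to 18 members were lower and 4 higher. All 226 member ratios under these settings and with 5 added counts stayed inside the member's own interval, and 0 of the calls of lower, higher or spanning were altered. Filters on low counts cannot alter a member's ratio or interval, and added counts cannot alter a call. Of these settings, only the 3 other scalings could therefore alter a call. The median log2 ratio ranged from -0.19 to -0.17. Other scalings shifted all ratios by at most 0.01. Restriction to the 29 members without exon overlaps, a setting added after seeing the data, left 15 lower and 3 higher, with a median of -0.18. Adding counts does not enter the intervals and gave no value for the counts of members. No paired analysis was possible because the design has a single library of either genotype, so no replicate could be omitted either. Depth limits members such as Pgf, Tal1 and Icam2, whose counts are low.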
